A study of Mus musculus with 2 samples.

Results

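Of 17494 cells kept from 2 single-cell RNA libraries of mouse gastruloids, 2665 cells held unusually few transcripts from 28 genes of chromosome 6. Cells were scored by a marker index. The UMIs (unique molecular tags, each standing for 1 counted transcript) of the 28 marker genes were summed in each cell and divided by all its UMIs. That share was then divided by its median over all kept cells. Low cells had an index of 0.8 or under, and reference cells had an index over 0.9. The other 2410 cells lay between the limits and entered neither group. The index is relative. A low value says only that a cell held a smaller share of RNA from the 28 genes than most others. It does not say which of the groups has the usual amount.

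Gastruloids are clumps of embryonic stem (ES) cells that, when cultured together, start to lay down an axis. Each was started from about 300 cells of the mouse ES line R1, WT or a Double Mutant for Sp5/8, in N2B27, a medium without serum. Both groups received 3 µM CHIR, a GSK3 inhibitor that switches on Wnt signalling, after 2 days, and were collected 12 h later at day 2.5. Aggregates were pooled before dissociation, each genotype gave 1 library made from 3′ ends, and the labels do not say how many mutant clones were used.

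An autosome is normally present as a pair, and for most genes the amount of transcript follows the number of gene copies. ES cells kept in culture are known to gain and lose whole chromosomes, and such cells can spread through a line. Copy number shows in single-cell RNA as a shift of many neighbouring genes at once, whereas a change of cell state moves genes scattered over the genome. DNA was not measured here, so fewer copies of a chromosome and less RNA from each copy cannot be told apart.

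Sp5 and Sp8, zinc finger transcription factors that act in Wnt signalling, are the targeted genes and come first as a test of the labels. Sp5 stood at 104.4 CPM (UMIs scaled to a total of 1000000) in reference cells of the library labelled WT and at 452.4 CPM in those of the library labelled Sp5/8 double mutant. Sp8 stood at 18.3 and 37.1 CPM. Both transcripts were thus more abundant in the library whose label names these genes as mutated, and no direction between the libraries is read here as an effect of the genotype. Counts from 3′ ends do not tell an edited allele from an intact one.

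The labels give 9238 and 11190 captured cells, and 9253 and 11246 barcodes held at least 1000 UMIs. The limits of at least 6000 UMIs and at most 10% mitochondrial UMIs left 8119 and 9375 cells. Between the 2 libraries 18 kept barcodes were shared. With 1 library for each genotype there is no replicate check, and no test of a difference is given. Intervals are 95% intervals that cover counting error only.

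Low cells made up 1057 of 8119 cells, 13.0% (exact binomial interval 12.3 to 13.8), in the library labelled WT. They made up 1608 of 9375 cells, 17.2% (16.4 to 17.9), in the library labelled Sp5/8 double mutant. Reference cells numbered 5987 and 6432. Low cells were slightly shallower, with a median of 10042 UMIs against 11062 in reference cells of the library labelled WT and 8738 against 9126.5 in the other library. The mitochondrial share was alike in both groups, with medians of 3.85% and 3.83% in the library labelled WT and 4.11% and 4.02% in the other.

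The marker genes that chose the cells serve basic functions. They include Cct7 of the cytosolic chaperonin, Mcm2 of the replicative helicase, Ezh2 of Polycomb complex PRC2, Rpn1 and Sec61a1 of protein entry into the endoplasmic reticulum, and the glycolytic enzymes Tpi1 and Ldhb. As a description of the choice, a median low cell held 55 marker UMIs against 93 in a reference cell of the library labelled WT, and 47 against 76 in the other library. The log2 ratio of CPM between low and reference cells ran from -0.83 for Brk1 to -0.10 for Ptms in the library labelled WT. It ran from -0.77 for Mcm2 to -0.43 for Ptms in the library labelled Sp5/8 double mutant. These marker values were fixed by the rule and support nothing.

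The label was checked on the chromosome 6 genes that took no part in the choice. Their summed share of UMIs, again divided by the median of all kept cells, had a median of 0.740 in low cells and 1.01 in reference cells of the library labelled WT. The values were 0.737 and 1.03 in the library labelled Sp5/8 double mutant. A median low cell held 344 UMIs of these genes in the first library and 310 in the second, against 503 and 426 in reference cells. This share was at most 0.8 in 838 of 1057 low cells, 79.3% (76.7 to 81.7), and in 411 of 5987 reference cells, 6.86% (6.24 to 7.54), of the library labelled WT. It was at most 0.8 in 1175 of 1608 low cells, 73.1% (70.8 to 75.2), and in 164 of 6432 reference cells, 2.55% (2.18 to 2.96), of the other library.

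**Figure D1:**
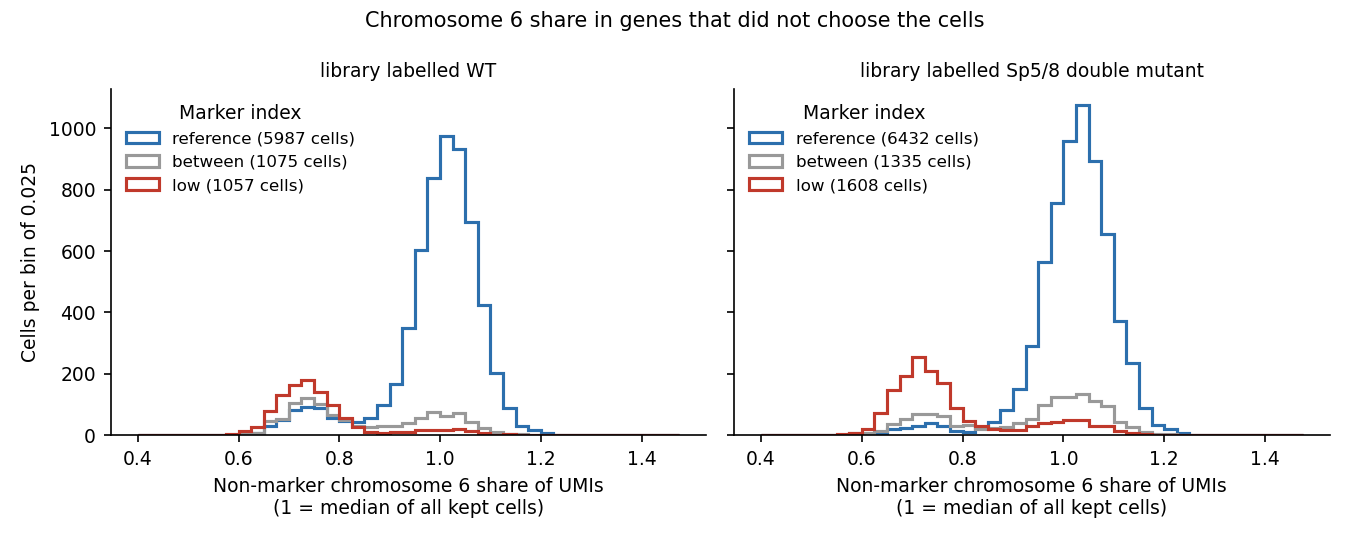
Number of cells (y axis) by the share of UMIs from chromosome 6 genes that are not markers, divided by the median of all kept cells (x axis), for low, between and reference cells of each library. Cells gather around 0.74 and around 1.0, and the cells between the limits are split over both.

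The non-marker share thus fell into 2 groups, and the marker index sorted cells between them with errors on both sides. Among low cells 116 of 1057 in the library labelled WT and 321 of 1608 in the other had a non-marker share over 0.9. Cells between the limits were at or under 0.8 in 47.3% and 26.3% of cases. Just inside the limit, at an index over 0.78 and up to 0.8, the non-marker share was at most 0.8 in 119 of 186 cells (64.0%) and 107 of 211 cells (50.7%). Just outside, up to 0.82, it was at most 0.8 in 115 of 186 (61.8%) and 96 of 238 cells (40.3%). The limit therefore cuts through a mixed zone, and folds between low and reference cells mix both kinds of cells. Over all kept cells, the non-marker share was at most 0.8 in 1758 of 8119 (21.7%) and in 1690 of 9375 (18.0%). By this second measure the order of the libraries was the opposite of that by the marker index.

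The share of low cells also moved with depth. It was, in the library labelled WT, 20.6% among cells of 6000 to 8000 UMIs and 7.06% among cells of at least 15000. The values in the library labelled Sp5/8 double mutant were 19.6% and 10.2%. The non-marker share, which rests on several times more UMIs, went from 30.2% to 13.6% in the library labelled WT. In the other it was 19.1%, 19.2% and 17.9% in the 3 bins up to 15000 UMIs and 8.07% above. The part of depth in these shares was not tested. With every cell thinned to 6000 UMIs, low cells made up 13.5% and 17.1%.

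Chromosome 6 genes other than the markers were nearly all lower. Of 1764 such genes, 349 passed the level filter, a mean of at least 10 CPM over the kept cells of both libraries, and 1415 did not. The log2 ratio of low to reference cells was below 0 for 342 of them in the library labelled WT and for 344 in the other, beside 3916 and 4400 of all 7590 genes tested. A gene is counted below as lower at a fold of 0.8 or under and as higher at the inverse of that fold or over. By this count 252 of the 349 (72.2%) were lower and 0 higher in the library labelled WT, beside 7.48% lower and 3.6% higher among all genes tested. For the library labelled Sp5/8 double mutant the counts were 266 of 349 (76.2%) and 0, beside 5.76% and 1.71% of all genes tested. In both libraries 216 of the 349 genes were lower, beside 3.72% of all genes tested. The median fold over the 349 genes was 0.746 in the library labelled WT (quartiles 0.698 and 0.807) and 0.749 in the other (0.704 and 0.797). On the log2 scale both medians were -0.42, beside -0.0068 and -0.027 over all genes tested.

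The counting interval lay wholly below 0 for 317 of the 349 genes in the library labelled WT and for 329 in the other, beside 20.7% and 22.2% of all genes tested. It lay wholly above 0, as for 18.6% and 14.9% of all genes tested, for 1 gene in each, Peg10 at 0.21 (0.07 to 0.35) in the library labelled WT and Ptn at 0.14 (0.04 to 0.24) in the other. Peg10, a paternally expressed gene derived from a retrotransposon, was singled out after its values were seen, and its log2 ratio in the library labelled Sp5/8 double mutant was -0.11.

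Ratios were alike from one end of the chromosome to the other. The tested genes run from Vps50, at 3498382 to 3603531 of chromosome 6 (GRCm38), to Bicd1, at 149408886 to 149563329. In 15 windows of 10 Mb, with 6 to 49 genes each, the median log2 ratio ran from -0.47 to -0.34 in the library labelled WT and from -0.48 to -0.34 in the library labelled Sp5/8 double mutant. The level of a gene made little difference to the median. The 74 genes over 100 CPM had medians of -0.40 and -0.40 with an SD over genes of 0.12 and 0.091, and the 115 genes of 10 to 25 CPM had medians of -0.40 and -0.41 with an SD of 0.19 and 0.18.

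**Figure D2:**
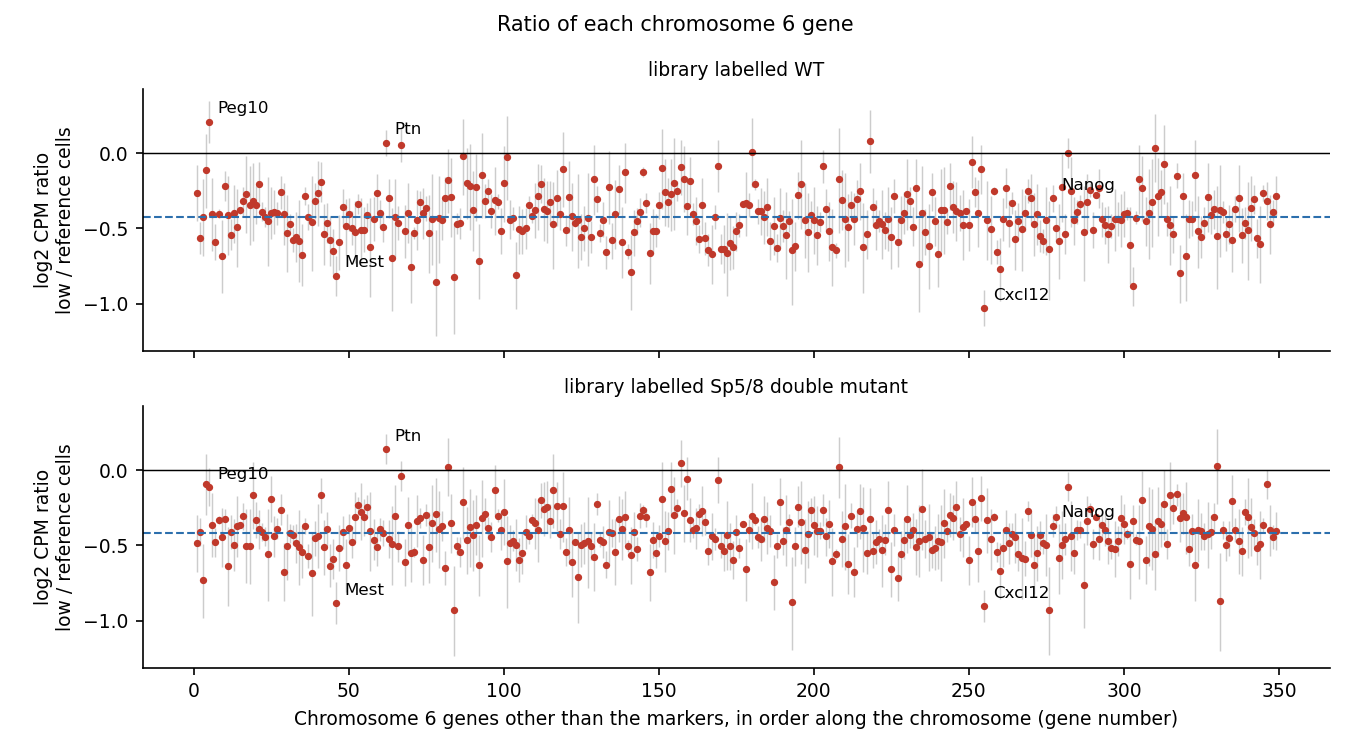
Log2 ratio of CPM between low and reference cells (y axis) for the 349 tested chromosome 6 genes in their order along the chromosome (x axis), with 95% counting intervals as grey bars and the median as a dashed line, in each library. Nearly all genes lie under 0, and no stretch of the chromosome stands apart.

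The most abundant chromosome 6 transcripts, by 3′ counts not corrected for length, were lower in both libraries. Snrpg, a core protein of spliceosomal particles, stood at 2218 CPM in low and 2796 CPM in reference cells of the library labelled WT and at 2190 and 2805 CPM in the other, log2 ratios of -0.33 and -0.36. Serbp1, an RNA-binding protein, was at -0.47 and -0.48, and Ndufa4, a protein of the respiratory chain, at -0.38 and -0.36. Mkrn1, a ubiquitin ligase, was at -0.53 and -0.54. Tmsb10, which binds actin monomers, was at -0.12 and -0.26, and Pcbp1, an RNA-binding protein, at -0.21 and -0.33. The remaining 4, Gapdh, Hnrnpf, Sem1 and Fkbp4, lay between -0.43 and -0.25.

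Glycolysis holds genes on and off the chromosome within 1 pathway. Besides the markers Tpi1 and Ldhb, the chromosome holds Gapdh, at -0.28 and -0.31, and Hk2, the hexokinase that starts the pathway, at -0.35 and -0.44. The glucose transporter Slc2a3 was at -0.50 and -0.31 and Bpgm at -0.51 and -0.31. The 10 tested glycolysis genes on other chromosomes had medians of 0.088 and 0.045. Ldha, which makes the partner subunit of Ldhb in lactate dehydrogenase, was at 1127 CPM in low and 791 CPM in reference cells of the library labelled WT and at 1018 and 845 CPM in the other, log2 ratios of 0.51 and 0.27. Aldoa was at 0.42 and 0.28. Slc2a1, a second glucose transporter encoded on chromosome 4, was at -0.60 and -0.38. Of these 10 genes 2 had a log2 ratio below 0 in the library labelled WT and 3 in the other, beside 51.6% and 58.0% of all genes tested.

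Partners of the marker genes in protein complexes, encoded on other chromosomes, had list medians from -0.16 to 0.090. The 7 other subunits of the chaperonin around Cct7 had a median log2 ratio of 0.042 in the library labelled WT and 0.029 in the other. Cct4, encoded on chromosome 11, was at -0.23 and 0.023. The 5 partners of Mcm2 had medians of -0.0099 and -0.16, and the 7 condensin partners of Ncapd2 had medians of 0.030 and -0.083. PRC2 genes outside chromosome 6 had medians of 0.090 and -0.039 over 7 genes, while Aebp2, the PRC2 cofactor encoded on chromosome 6, was at -0.43 and -0.40. Medians were 0.0051 and -0.060 for 9 oligosaccharyltransferase genes, partners of Rpn1, and -0.023 and 0.061 for 8 genes of the Sec61 translocon. In the COPI coat the 6 genes elsewhere had medians of 0.027 and 0.019, and Copg2 on chromosome 6 was at -0.59 and -0.51. Phb, the partner of Phb2 encoded on chromosome 11, was at -0.16 and 0.014.

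Cxcl12, a chemokine that guides migrating cells, was the lowest of the chromosome 6 genes with a mean of at least 50 CPM. It stood at 54.4 CPM in low and 111.0 CPM in reference cells of the library labelled WT and at 55.1 and 103.0 CPM in the other, log2 ratios of -1.03 (-1.15 to -0.91) and -0.90 (-1.01 to -0.80). Nanog, a core pluripotency factor, was at 98.6 and 121.4 CPM in the first library and 105.5 and 136.2 CPM in the second, log2 ratios of -0.30 and -0.37. Gdf3, a TGF-beta family ligand of pluripotent cells, was at -0.64 and -0.93, at a level of only 7.39 to 14.1 CPM, and 10 of the low cells held 25.9% and 20.7% of its UMIs. Ptn, a heparin-binding growth factor, was no lower. It stood at 112.4 CPM in low and 107.0 CPM in reference cells of the library labelled WT and at 70.8 and 64.2 CPM in the other, log2 ratios of 0.070 and 0.14.

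Polr1a, the largest subunit of RNA polymerase I, was at -0.66 and -0.63, and Tmem209 at -0.65 and -0.59. Magohb, of the exon junction complex, was at -0.88 in the library labelled WT and -0.34 in the other. Besides Ptn, the highest ratios among genes with a mean of at least 50 CPM, by the mean of both libraries, were those of Fmc1 at 0.054 and -0.039, Grcc10 at 0.0037 and -0.11, the histone H2afj at -0.15 and -0.16, and Slc6a6, a taurine transporter, at -0.085 and -0.26.

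Imprinted genes are expressed from 1 parental copy, and chromosome 6 carries several of them. Of 16 listed genes 7 were tested, with medians of -0.42 and -0.36. Mest, a paternally expressed gene, stood at 44.0 CPM in low and 77.4 CPM in reference cells of the library labelled WT and at 31.6 and 58.3 CPM in the other, log2 ratios of -0.82 (-0.95 to -0.68) and -0.88 (-1.02 to -0.74). In the first library 10 of the low cells held 21.2% of its UMIs. Copg2 lies antisense to Mest, and without knowledge of how strand was handled in the counting their reads cannot be kept apart with certainty. Casd1 was at -0.42 and -0.73 and Ppp1r9a at -0.40 and -0.36.

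Outside chromosome 6, whole chromosomes stayed close to no difference, with 1 exception. On 18 of the other 19 chromosomes the median log2 ratio ran from -0.026 (chromosome 8) to 0.049 (X) in the library labelled WT. It ran from -0.043 (chromosome 10) to 0.015 (chromosome 1) in the library labelled Sp5/8 double mutant. The exception was chromosome 11, with a median of -0.22 over 667 genes in the library labelled WT and -0.044 in the other. There 159 of 667 genes (23.8%) were lower in the library labelled WT, beside 7.48% of all genes tested, and 14 (2.10%) in the other, beside 5.76%. The shares of all genes include chromosome 6 itself. Outside chromosomes 6 and 11, 2.39% of genes were lower in each library.

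**Figure D3:**
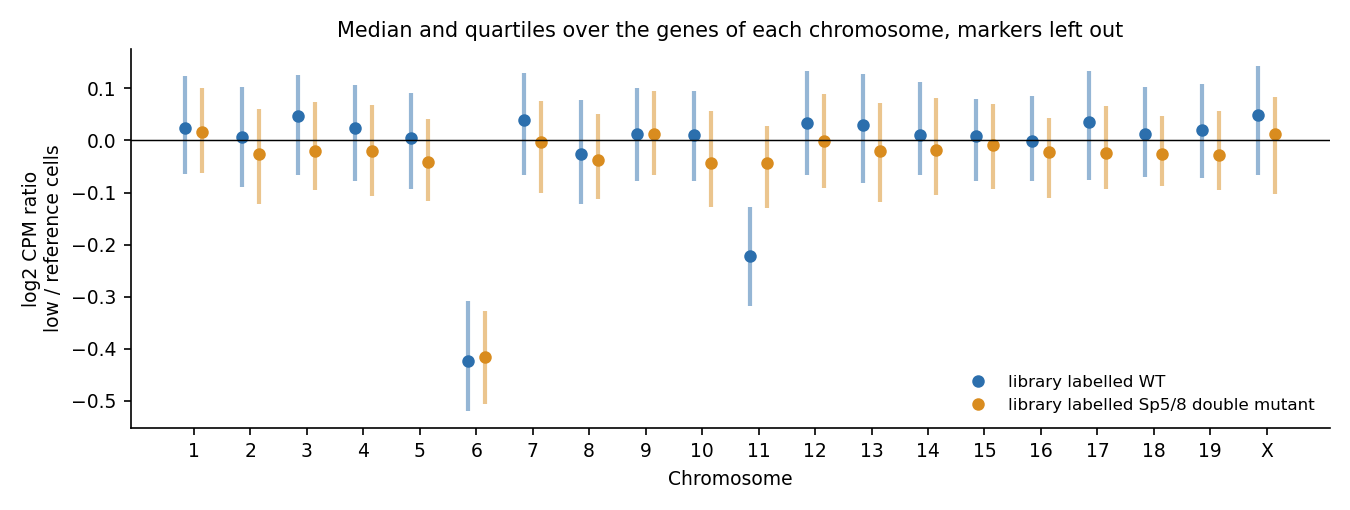
Median (points) and quartiles (bars) of the log2 ratio of CPM between low and reference cells (y axis) over the tested genes of each chromosome (x axis), markers left out, for both libraries. Chromosome 6 lies near -0.42 in both libraries, and chromosome 11 lies at -0.22 in the library labelled WT alone.

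Low chromosome 6 and low chromosome 11 went together in the same cells of the library labelled WT. There the chromosome 11 share was at most 0.8 times the median in 565 of 1057 low cells, 53.5% (50.4 to 56.5), and in 448 of 5987 reference cells, 7.48% (6.83 to 8.18). In the library labelled Sp5/8 double mutant it was at most 0.8 in 140 of 1608 low cells, 8.71% (7.37 to 10.2), and in 275 of 6432 reference cells, 4.28% (3.79 to 4.80). Seen from chromosome 11 and with the non-marker share, which is less noisy, 1154 of 1417 cells low on chromosome 11 (81.4%) were also low on chromosome 6 in the library labelled WT. Among its cells not low on chromosome 11 these were 604 of 6702 (9.01%). In the other library they were 203 of 491 (41.3%) and 1487 of 8884 (16.7%). Reference cells of the library labelled WT that were low on chromosome 11 but not on 8 had a median non-marker chromosome 6 share of 0.761, so most of them were low on chromosome 6 although their marker index was over 0.9. The corresponding cells of the library labelled Sp5/8 double mutant had a median of 1.09.

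**Figure D4:**
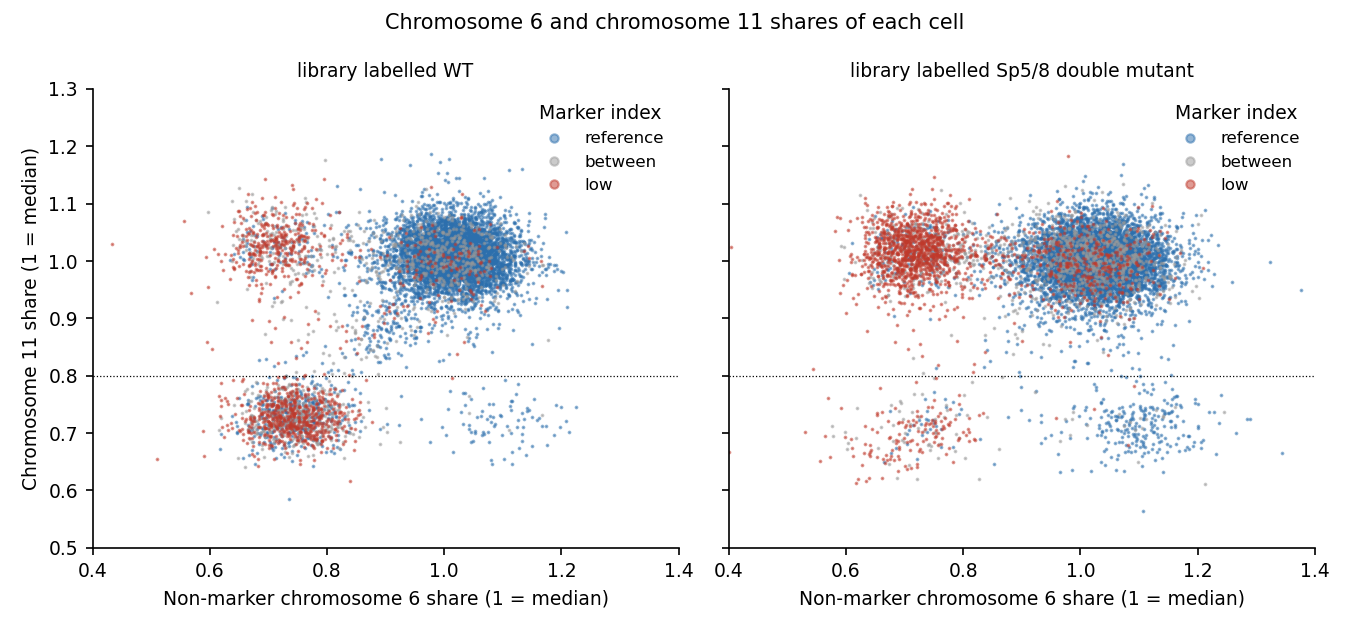
Each point is a cell, with its non-marker chromosome 6 share (x axis) and its chromosome 11 share (y axis), both divided by the median of all kept cells, coloured by the marker index, with a dotted line at 0.8. Most cells low on chromosome 11 are also low on chromosome 6 in the library labelled WT, and the library labelled Sp5/8 double mutant has a group low on chromosome 6 alone and a small one low on chromosome 11 alone.

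Smaller groups of low cells had a low or high share of another chromosome. The chromosome 8 share was at most 0.8 in 99 of 1057 low cells (9.37%) and in 70 of 5987 reference cells (1.17%) of the library labelled WT. Of these 99 cells 25 were also low on chromosome 11 and 74 were not, while 540 low cells were low on chromosome 11 alone and 418 on neither. The library labelled Sp5/8 double mutant had 6 of 1608 low cells (0.373%) and 19 of 6432 reference cells (0.295%) at or under 0.8 on chromosome 8. The X share was at least 1.2 in 96 low cells (9.08%) and 120 reference cells (2.00%) of the library labelled WT, and in 28 (1.74%) and 32 (0.498%) of the other. On chromosome 1 it was at least 1.2 in 43 low cells (4.07%) against 38 reference cells (0.635%) of the first library and in 105 (6.53%) against 98 (1.52%) of the second. Shares of at least 1.2 were also found for chromosome 13 in 4.45% of low and 0.969% of reference cells, and for chromosome 3 in 4.16% and 0.768%, of the library labelled WT. The other library had them for chromosome 15 in 3.79% and 0.171% and for chromosome 9 in 3.54% and 0.0777%. Chromosome 19 was at least 1.2 in 4.54% of low and 4.16% of reference cells of the library labelled WT and in 82 of 1608 and 357 of 6432 cells of the other. Each share is taken of all UMIs, so less RNA from 1 chromosome raises the shares of the others. The median X share was 1.07 in low and 1.01 in reference cells of the library labelled WT. How far this moved the counts of high shares was not tested.

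Some single genes differed by chromosome 11 class. In the library labelled WT the reference cells low on chromosome 11 were mostly low on 6 by the non-marker share as well, so there the 2 chromosomes cannot be told apart. Mest in the library labelled WT was at 23.6 CPM in low cells also low on chromosome 11 and at 64.2 CPM in low cells over that limit. Reference cells showed the same split, with 26.8 and 80.8 CPM. Without cells low on chromosome 11 its log2 ratio was -0.33 in that library. The library labelled Sp5/8 double mutant had Mest at 11.8 (14 UMIs) and 33.3 CPM in low cells and at 34.1 and 59.2 CPM in reference cells. Magohb in the library labelled WT was at 29.2 and 63.9 CPM in low cells and at 34.2 and 89.6 CPM in reference cells. Without cells low on chromosome 11 its log2 ratio there was -0.49. Cxcl12 was at 51.4 and 57.4 CPM in low cells and 66.9 and 114.0 CPM in reference cells of the library labelled WT. The other library had it at 28.6 and 57.4 CPM in low cells and at 88.1 and 103.6 CPM in reference cells.

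Genes of other chromosomes passed the fold in both directions. Outside chromosome 6, 316 of 7241 genes (4.36%) were lower and 273 (3.77%) higher in the library labelled WT, beside 7.48% and 3.6% of all genes tested. The library labelled Sp5/8 double mutant had 171 (2.36%) and 130 (1.80%), beside 5.76% and 1.71%. In both libraries 66 such genes were lower and 85 higher, beside 3.72% and 1.12% of all genes tested. Outside chromosomes 6 and 11, 157 of 6574 genes (2.39%) were lower in each library.

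At a mean of at least 50 CPM, the lowest of these genes by the mean of both libraries lay on several chromosomes. Slc45a4 (chromosome 15), a solute transporter, stood at 30.8 CPM in low and 68.0 CPM in reference cells of the library labelled WT and at 27.8 and 52.0 CPM in the other, log2 ratios of -1.14 (-1.31 to -0.98) and -0.90 (-1.05 to -0.75). Rhox5, an X-linked homeobox gene, was at 27.3 and 58.6 CPM in the first library and 33.0 and 60.1 CPM in the second, log2 ratios of -1.10 and -0.87. Only 10 of the low cells held 48.0% of its 304 UMIs in the first library. Fth1, the heavy chain of ferritin that stores iron, was at 1905 and 2849 CPM in the library labelled WT and at 2132 and 2787 CPM in the other, log2 ratios of -0.58 and -0.39. The others were Slc2a1, the neurofilament gene Ina (antisense to Nt5c2) at -0.47 and -0.45, Mvd of cholesterol synthesis at -0.46 and -0.40, Upf1 of nonsense-mediated decay at -0.48 and -0.37, and the uracil glycosylase Ung at -0.43 and -0.42. Rhox5, Fth1, Slc2a1, Slc45a4 and Ina were also lower in reference cells low on chromosome 11 than in other reference cells of each library. Rhox5 was at 12.7 against 61.6 CPM in the library labelled WT and at 19.2 against 61.7 CPM in the other. Slc45a4 differed little in the other, at 47.7 against 52.1 CPM. Mvd and Upf1 in that library, and Ung in the library labelled WT, were higher. The part of chromosome 11 in these ratios was not tested.

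At the same minimum, the highest were Stmn2, a microtubule regulator of neurons, at 0.76 and 0.65, and the apolipoprotein Apoe at 0.77 and 0.49. Stmn2 stood at 117.5 CPM in low and 69.3 CPM in reference cells of the library labelled WT and at 96.7 and 61.7 CPM in the other. Hnrnph3, a splicing regulator, was at 0.59 and 0.62, though Rufy2 is annotated antisense to it. The topoisomerase Top2b was at 0.58 and 0.44, Cd63 of late endosomes at 0.55 and 0.39, the carbonic anhydrase Car2 at 0.52 and 0.39 and the imprinted gene Zdbf2 at 0.51 and 0.36. Stmn2, Apoe, Hnrnph3, Top2b, Cd63, Car2 and Zdbf2 were also higher in reference cells low on chromosome 11 than in other reference cells. Stmn2, for example, was at 119.0 against 65.9 CPM in the library labelled WT. Hnrnph3 was at 141.1 against 72.1 CPM in that library and at 77.9 against 67.6 CPM in the other. The part of chromosome 11 in these ratios was not tested beyond the values without such cells, where for example Apoe was at 0.58 and 0.45.

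Sparc, an extracellular matrix protein made in large amounts by parietal endoderm, was at 0.78 and 0.39, and few cells carried much of its RNA. Of the library labelled WT, 6 of 1057 low cells held at least 5 UMIs of the 9 extraembryonic endoderm markers with a mean under 10 CPM, such as Sox17, Gata6 and Ttr. Those 6 cells held 351 of 458 such UMIs and 515 of 1154 Sparc UMIs of all low cells. There were 8 such cells among 5987 reference cells of that library, and 3 of 1608 low and 5 of 6432 reference cells in the other. Without them the log2 ratio of Sparc in the library labelled WT was 0.11 (-0.011 to 0.23) and that of Apoe 0.69. For the other library they were 0.30 (0.19 to 0.40) and 0.46. The summed level of all 11 endoderm markers was 209.6 CPM in low and 129.7 CPM in reference cells of the library labelled WT, and 140.9 and 125.9 CPM in the other, with 0 markers at 0 UMIs in either.

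**Figure D5:**
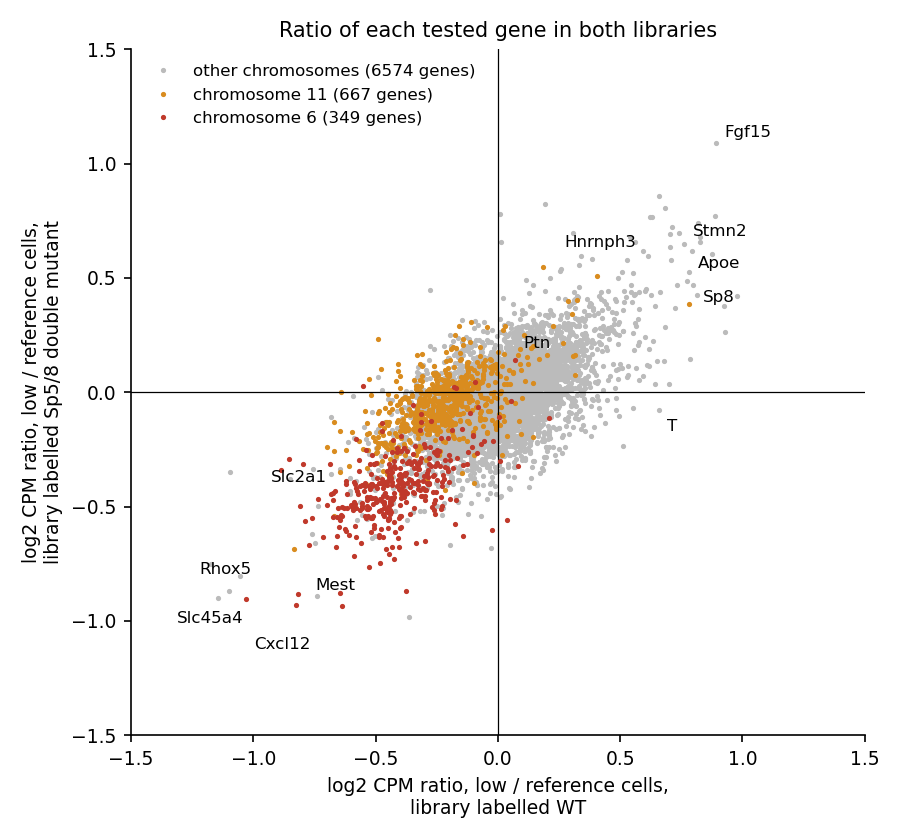
Log2 ratio of CPM between low and reference cells in the library labelled WT (x axis) and in the library labelled Sp5/8 double mutant (y axis), 1 point for each of the 7590 tested genes, with 1 gene outside the plotted range. Chromosome 6 genes lie low in both libraries, chromosome 11 genes are shifted in the library labelled WT, and a tail of genes of other chromosomes, among them Fgf15 and Stmn2, lies high in both.

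Cell state markers outside chromosome 6 differed in both directions. Primed epiblast genes, which mark pluripotent cells ready to differentiate, had medians of 0.21 and -0.0077 over 13 genes. In each library 3 of 13 were higher and 1 lower, beside 3.6% and 7.48% of all genes tested in the library labelled WT and 1.71% and 5.76% in the other. Among genes outside chromosome 6, 4.36% and 2.36% were lower. Fgf15 stood at 24.8 CPM in low and 13.3 CPM in reference cells of the library labelled WT and at 24.6 and 11.5 CPM in the other, log2 ratios of 0.89 (0.69 to 1.09) and 1.09 (0.91 to 1.27). Otx2, a head and epiblast factor, was at 0.26 and 0.54 and Sall2 at 0.48 and 0.35. Etv4, a target of FGF signalling on chromosome 11, was at -0.67 and -0.54. Dnmt3b, the most abundant of the 13, stood at 681 CPM in low and 744 CPM in reference cells of the library labelled WT and at 729 and 803 CPM in the other. Summed over all 13 genes, the level was 1574 against 1590 CPM and 1670 against 1752 CPM. Naive pluripotency was covered by 3 genes outside chromosome 6, with medians of 0.068 and -0.25. Among them Klf2 was at 0.54 and 0.68 and the threonine dehydrogenase Tdh at -0.14 and -0.25. The remaining gene, Zfp42, was at 17.9 against 17.1 CPM in the library labelled WT and at 14.4 against 18.6 CPM in the other. All 15 listed naive genes, Nanog and Gdf3 of chromosome 6 included, summed to 292 against 309 CPM and 265 against 313 CPM.

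Lists of later fates were small. Primitive streak genes outside chromosome 6 had medians of -0.093 and 0.0034 over 7 genes, and caudal genes had medians of -0.15 and 0.25 over 3 genes. Foxa2, a streak gene under the level filter, was at 4.40 against 1.85 CPM in the library labelled WT and 11.3 against 5.61 CPM in the other. Lhx1 and Mesp1, also under it, were lower in low cells of the library labelled WT. The sum of all 12 listed streak genes was 336.6 against 336.8 CPM and 539.6 against 543.2 CPM. For 3 neural genes the medians were 0.011 and 0.45. Summed over all 11 listed caudal genes, the level was 84.2 CPM in low and 75.3 CPM in reference cells of the library labelled WT and 82.7 and 72.7 CPM in the other. Cdx2, a caudal gene under the level filter, was at 17.7 against 7.65 CPM in the library labelled WT and 7.06 against 6.10 CPM in the other. Cdx1, Cdx4 and Wnt5a were also higher in both, at low levels, and each Hox gene held at most 3 UMIs in low cells. The sum of all 10 listed neural genes was 97.4 against 88.4 CPM and 73.6 against 57.4 CPM. Irx3 and Irx5, homeobox genes of the early neural plate, were at -0.28 and 0.014 in the library labelled WT and at 0.45 and 0.66 in the other. Irx5 stood at only 6.24 to 17.5 CPM. In the 2 libraries 10 of the low cells held 18.1% and 15.9% of the Irx3 UMIs and 16.9% and 17.6% of the Irx5 UMIs. Hes5, Ncam1, Pax6, Pou3f2, Sox1, Sox21 and Zic1, all under the level filter, were each higher in low cells of both libraries. Ncam1 was at 10.8 against 6.08 CPM in the library labelled WT and at 8.19 against 4.25 CPM in the other. Sox1 was at 8.08 against 4.28 CPM and at 4.73 against 2.22 CPM.

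T, the Brachyury gene that marks the primitive streak, was higher in cells low on chromosome 11 within both marker index groups of each library. Its log2 ratio was 0.66 (0.53 to 0.79) in the library labelled WT and -0.078 (-0.19 to 0.037) in the other. In low cells of the library labelled WT it was at 73.0 CPM in those also low on chromosome 11 and at 37.0 CPM in the rest. Reference cells gave 70.7 and 32.4 CPM. The library labelled Sp5/8 double mutant showed the same order, with 121.8 and 43.7 CPM in low cells and 105.2 and 50.6 CPM in reference cells. Without cells low on chromosome 11 the log2 ratio was 0.19 (-0.022 to 0.40) and -0.21 (-0.34 to -0.087). With cells also grouped on the non-marker share it was 0.67 and -0.20, so the value in the library labelled WT depends on how low cells were defined.

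Sp5 was higher in low cells of both libraries, at 130.8 against 104.4 CPM in the library labelled WT and 564.5 against 452.4 CPM in the other, a log2 ratio of 0.32 in each. Sp8 stood at 31.8 against 18.3 CPM and at 51.3 against 37.1 CPM, log2 ratios of 0.80 (0.62 to 0.97) and 0.47 (0.35 to 0.59). Both genes were also higher in reference cells low on chromosome 11. Sp8 was at 36.7 CPM there against 17.1 CPM in other reference cells of the library labelled WT, and at 62.6 against 36.1 CPM in the other library.

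The medians of stress and cell cycle lists were much nearer 0 than that of chromosome 6. Single genes did reach its size, such as Ung of the S phase list at -0.43 and -0.42. Integrated stress response genes outside chromosome 6 had medians of -0.14 and -0.083 over 7 genes, with Atf4 at -0.37 and -0.25. Asns, the stress-induced asparagine synthetase on chromosome 6, was at -0.22 and -0.33. The 14 p53 target genes had medians of -0.077 and -0.11, and Ccng1, on chromosome 11, was at -0.50 and -0.26. Of the 14, 10 and 13 had a log2 ratio below 0, beside 51.6% and 58.0% of all genes tested. For 10 heat shock genes the medians were 0.048 and 0.012. The 36 S phase genes had medians of -0.025 and -0.088. Of these, 2 were lower in the library labelled WT and 1 in the other, beside 7.48% and 5.76% of all genes tested. Among genes outside chromosome 6, where all 36 lie, 4.36% and 2.36% were lower. None of the 36 was higher in either, beside 3.6% and 1.71% of all genes tested. In the 2 libraries 25 and 28 had a log2 ratio below 0, beside 51.6% and 58.0% of all genes tested. The 48 G2/M genes outside chromosome 6 had medians of 0.040 and 0.014, while Cdca3 on chromosome 6 was at -0.39 and -0.40.

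A pair of further groupings was made after seeing the data, to give folds free of the marker genes. Cells grouped on the non-marker share gave median folds of 0.733 and 0.702 over the 28 markers, from 0.567 for Brk1 to 1.04 for Ptms in the library labelled WT and from 0.582 for Ldhb to 0.851 for Ptms in the other. Cells grouped on every second non-marker gene gave median folds in the remaining genes of 0.716 and 0.714 in the library labelled WT and 0.694 and 0.686 in the other. These folds were further from 1 than the 0.746 and 0.749 of the marker grouping. Grouped on the non-marker share, the log2 ratio of Fgf15 was 1.24 and 1.22, that of Slc45a4 -1.45 and -1.24, and that of Fth1 -0.88 and -0.68.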

How the data were processed

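Single cells of 2 gastruloid libraries were analysed. The deposited values are raw UMI counts for each gene in each barcode. The submitters' processing notes name STARsolo, STAR 2.7.9a, Seurat 5.1.0 and the build mm10, and the labels' protocol names Cell Ranger with default settings. Which of these made the counts, and how strand was handled, is not given in the sources used here. The matrices list 6794880 barcodes each, so they hold no cell filter, and 104083993 and 103187025 UMIs. Gene positions came from GENCODE M21 (GRCm38), where 32158 of 32285 gene IDs matched.

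Counts were summed over low and over reference cells of each library and scaled to CPM over all UMIs. Intervals of ratios are exact conditional intervals of 2 Poisson sums, those of shares exact Clopper-Pearson intervals, and cells are not replicates. A gene counted as lower at a fold of at most 0.8 and as higher at its inverse or over. The ratio script was tested on simulated counts with 200 changed genes. Doublets were not removed. An alternative left out the highest Scrublet scores (scanpy 1.11.5), 527 and 703 cells, of which 47 and 105 were low cells. Python 3.11.15, numpy 2.4.6 and scipy 1.17.1 were used.

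The members, the 21 gene lists and the rules were chosen with earlier results of these data known. Named genes were Sp5, Sp8, T and Nanog, and of chromosome 6 genes other than markers the 10 most abundant and, at a mean of at least 50 CPM, the 5 lowest and 5 highest by the mean log2 ratio of both libraries. Of other chromosomes the 8 lowest and 8 highest were named, and up to 4 genes of each list with the largest mean log2 ratio in size. Every chromosome 6 member of the glycolysis list and of 4 complexes was named too. Mitochondrial, ribosomal and predicted genes were left out of these rankings. Peg10, Ldha, Aldoa and the endoderm markers were named after their values were seen.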

Additional observations from a re-analysis of the deposited data

Results flagged for a closer look

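Irx3 had log2 ratios between low and reference cells of opposite sign in the 2 libraries, -0.279 (-0.50 to -0.06) in the library labelled WT and 0.446 (0.17 to 0.71) in the library labelled Sp5/8 double mutant. Neither counting interval held 0. The difference was not tested, since each genotype has 1 library. Among cells grouped on the non-marker share and over the chromosome 11 limit, Irx3 was at 0.14 (-0.09 to 0.37) in the library labelled WT and at 0.67 (0.41 to 0.93) in the other.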

How the results depend on the processing

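The groupings on non-marker genes and the omission of endoderm-rich cells were chosen after seeing the data. No paired analysis was possible because each genotype has 1 library. Over the alternatives run, the non-marker median log2 ratio stayed below 0 in both libraries. The share of low cells in the library labelled WT was 4.68% with a limit of 0.7, 11.6% with at least 10000 UMIs, 14.6% with the index over the median of each library and 7.34% among cells over the chromosome 11 limit. In the library labelled Sp5/8 double mutant it was 7.58%, 16.0% and 15.8% under the first 3 of these. The chromosome 11 share among low cells was 45.0% with at least 10000 UMIs and 47.1% after thinning to 6000 UMIs in the library labelled WT, and 4.99% with at least 10000 UMIs in the other. The non-marker median log2 ratio was -0.35 after thinning in the library labelled WT, and in the other -0.52 with a limit of 0.7 and -0.53 and -0.54 with cells grouped on every second non-marker gene. With a minimum mean of 50 CPM, where fewer genes were tested, 115 and 119 chromosome 6 genes were at or under a fold of 0.8, and with a minimum of 1 CPM 400 were in the library labelled Sp5/8 double mutant. The cause of the other changes was not tested. Sign changes were counted only for single genes and lists past the fold of 0.8 or its inverse. Of these, Cdc6 in the library labelled WT changed sign, from -0.40 to 0.11 with cells grouped on the non-marker share and over the chromosome 11 limit. Smaller ratios also changed sign, such as that of Irx3 in the same library and grouping. Of all values of single genes and lists, a further 449 left their counting interval and 2358 did not. Depth limits the index of single cells, which rests on about 50 to 90 marker UMIs.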
